A study of Mus musculus with 11 samples.

Results

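The imprinted genes of the Kcnq1ot1 cluster on distal chromosome 7 and of the Airn cluster on chromosome 17 had no Smchd1 peak in either of the authors' peak lists. The genes were the 10 named members Kcnq1, Kcnq1ot1, Cdkn1c, Phlda2, Ascl2, Tssc4 and Cd81 on chromosome 7 and Igf2r, Airn and Slc22a3 on chromosome 17. They were chosen by name, as loci where Smchd1 is known to act in silencing, and all 10 were found among the 49603 RefSeq gene records used. The number of members with a peak was 0 of 10 inside the gene, 0 of 10 within 5 kb and 0 of 10 within 50 kb, in each list.

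Binding was mapped by chromatin immunoprecipitation and sequencing with an antibody to GFP. Libraries came from knock-in cells homozygous for an Smchd1-GFP fusion allele (Smchd1 GFP/GFP) and from wild-type cells, which carry no tag. Others came from whole cell extract, whose genotype the labels do not give. In the MNase experiment, in which micrococcal nuclease cut the chromatin, the knock-in group held 1 male and 1 female library, the wild-type group likewise 1 of each sex, and the extract was represented by 1 female library. In the sonication experiment, with 30 min of sonication in non-ionic detergent, all libraries were female: 2 of knock-in cells, 2 of wild-type cells and 2 of extract. All cells were formaldehyde-fixed neural stem cells of the C57BL/6 strain, derived from E14.5 embryos and grown for up to 20 passages. The authors gave 1 list of peak positions per experiment, with no height, score or read count. No peak therefore had a value per library, depth and replicate spread were unknown, and the cell type could not be checked against markers. A gene without a listed peak is one where the authors' peak calling reported none, which is not the same as no binding.

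Genomic imprinting silences one parental copy of a gene. In both clusters a long non-coding RNA is transcribed from the paternal chromosome, on which it silences neighbouring protein-coding genes in cis: Kcnq1ot1 runs antisense to part of Kcnq1, and Airn runs antisense to part of Igf2r. Some of the silenced genes lie far from the RNA and are imprinted mainly in the placenta, Ascl2, Cd81, Tssc4 and Slc22a3 among them. In the brain, neurons are known to express Igf2r from both copies, while glial cells keep it imprinted. Smchd1, an SMC-related protein of chromatin, takes part in keeping the inactive X chromosome and certain imprinted clusters silent.

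The starts of the silencing RNAs, one gene silenced beside them and one imprinted gene whose promoter did carry a peak are shown as sequence, because a peak at a promoter would have had to overlap these bases. Each window, from RefSeq with build GRCm38.p6, runs from 250 bases before the annotated start to 50 after it, 5′ to 3′ on the gene's strand, with CpG dinucleotides in capitals. Kcnq1ot1 is on the minus strand at chr7:143296498-143296797, Airn on the plus strand at chr17:12741061-12741360, Igf2r on the minus strand at chr17:12769657-12769956 and Ndn, the necdin gene of the Snrpn region, on the plus strand at chr7:62348027-62348326.
Kcnq1ot1: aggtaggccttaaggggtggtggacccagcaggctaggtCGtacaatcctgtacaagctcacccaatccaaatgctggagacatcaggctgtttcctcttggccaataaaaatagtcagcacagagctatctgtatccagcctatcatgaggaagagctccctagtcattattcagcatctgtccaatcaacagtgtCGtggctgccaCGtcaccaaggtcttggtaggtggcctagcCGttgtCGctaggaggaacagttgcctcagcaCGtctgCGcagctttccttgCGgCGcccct
Airn: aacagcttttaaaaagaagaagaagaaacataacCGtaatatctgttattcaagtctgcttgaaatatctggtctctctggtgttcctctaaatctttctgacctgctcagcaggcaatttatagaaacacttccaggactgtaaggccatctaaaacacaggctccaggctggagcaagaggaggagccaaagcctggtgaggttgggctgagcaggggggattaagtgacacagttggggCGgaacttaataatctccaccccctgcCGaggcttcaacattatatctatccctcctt
Igf2r: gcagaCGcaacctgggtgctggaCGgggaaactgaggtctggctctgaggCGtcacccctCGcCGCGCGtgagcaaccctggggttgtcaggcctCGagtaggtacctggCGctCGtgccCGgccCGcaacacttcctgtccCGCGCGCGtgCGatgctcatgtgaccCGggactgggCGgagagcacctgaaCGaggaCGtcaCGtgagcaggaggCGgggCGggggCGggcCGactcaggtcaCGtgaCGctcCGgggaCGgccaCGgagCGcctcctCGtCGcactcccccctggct
Ndn: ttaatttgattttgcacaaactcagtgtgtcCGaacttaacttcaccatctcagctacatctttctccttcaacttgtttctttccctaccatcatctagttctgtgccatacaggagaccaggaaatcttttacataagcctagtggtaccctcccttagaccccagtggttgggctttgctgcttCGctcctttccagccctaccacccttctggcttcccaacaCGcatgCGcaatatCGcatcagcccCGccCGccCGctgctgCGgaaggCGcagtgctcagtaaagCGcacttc

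The member windows differed in CpG content and overlapped no peak. The window of Airn held 3 CpG dinucleotides, that of Kcnq1ot1 9 and that of Igf2r 34. For 8 of the 10 members, all but Kcnq1 and Cdkn1c, a window was found, with a median of 23 CpG dinucleotides and a median GC content of 62.0%, beside medians of 7 CpG dinucleotides and 53.0% over all 31365 autosomal windows. Ascl2, Cd81 and Tssc4 had 23 each, Phlda2 26 and Slc22a3 5. Windows that overlapped an MNase peak were rich in CpG as well, with a median of 20 over 281 windows. Overlap with a peak was found for 0 of the 8 member windows in both lists. This count repeats the absence of peaks near the genes, since the nearest peak to any member lay 145 kb away. Overlap was rare over all autosomal windows, at 0.896% for MNase peaks and 0.0733% for sonication peaks. Among the 6929 windows with at least 23 CpG dinucleotides, which include 5 of the members, 1.56% overlapped an MNase peak and 0.13% a sonication peak. The window of Ndn, with 11 CpG dinucleotides, was overlapped by an MNase peak and lay 51.5 kb from the nearest sonication peak.

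The absence of peaks was close to what most genes showed. An MNase peak lay inside 0 of the 10 members and inside 2.70% of all 46714 autosomal genes. Within 5 kb, the MNase list had a peak for 0 of the 10 members and for 3.93% of autosomal genes, and within 50 kb for 0 of the 10 members and 11.0% of autosomal genes. A sonication peak lay inside 0 of the 10 members and inside 1.49% of autosomal genes. Within 5 kb the sonication list had a peak for 0 of the 10 members and 1.96% of autosomal genes, and within 50 kb for 0 of the 10 members and 6.32% of autosomal genes. Of autosomal coding genes, 4.36% held an MNase peak, 5.58% had one within 5 kb and 11.9% within 50 kb; for sonication peaks the shares were 2.57%, 2.95% and 6.77%. With a background this low, 0 of 10 is not a result particular to these genes. The members also share sites, since Kcnq1ot1 lies inside Kcnq1 and 28.4 kb of Igf2r and Airn overlap. Extended by 50 kb on each side, the clusters covered 1.18 Mb, where the autosomal means of 1.18 MNase peaks and 0.685 sonication peaks per Mb would place 1.38 and 0.806 peaks. Among autosomal windows of 500 kb, 33.9% held an MNase peak and 27.5% a sonication peak, so most stretches of the length of one cluster had none.

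**Figure D1:**
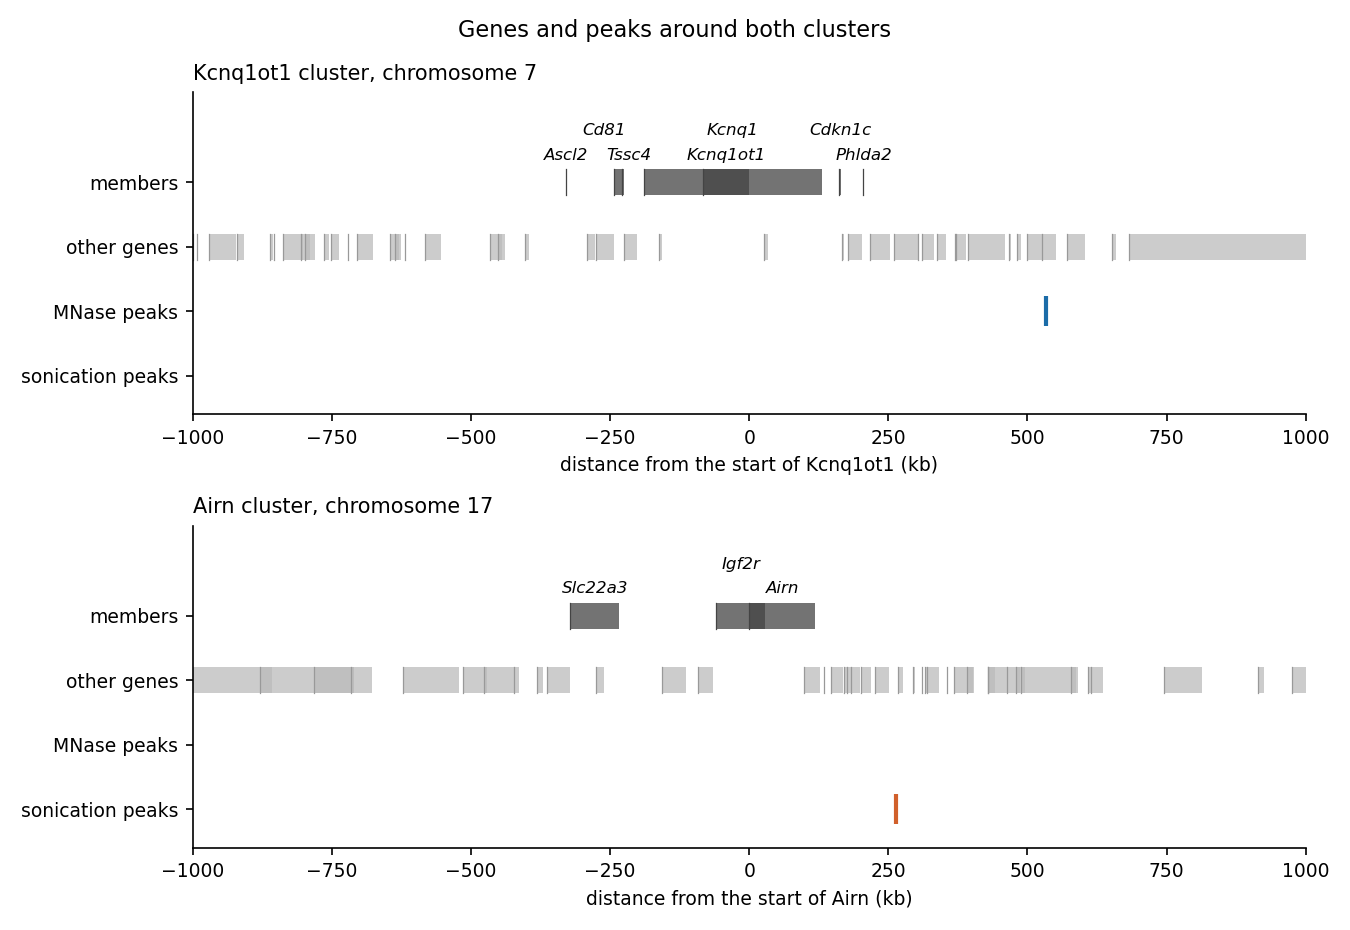
Genes and peaks within 1000 kb of the start of Kcnq1ot1 (top) and of Airn (bottom), by distance in kb along the chromosome. Dark bars are members, pale bars other coding and lncRNA genes, blue ticks MNase peaks and orange ticks sonication peaks; each panel holds 1 peak, an MNase peak in the top panel and a sonication peak in the bottom one, both to the right of all members.

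The genes of the silencing RNAs had no peak at their start or along their length. Kcnq1ot1, from 143213111 to 143296547 on chromosome 7, is 83.4 kb long, and its nearest MNase peak was 533 kb away and its nearest sonication peak 2.51 Mb away. Airn, from 12741311 to 12859884 on chromosome 17, is 118.6 kb long, with the nearest MNase peak 3.11 Mb and the nearest sonication peak 145 kb away. The distance of Airn to a sonication peak was the shortest of all members in either list. Measured from the start of the RNA, the nearest sonication peak was 263 kb from Airn and 2590 kb from Kcnq1ot1. Of the 419 autosomal lncRNA genes of at least 80 kb, 13.8% held an MNase peak and 11.9% a sonication peak, so neither RNA gene stood apart by having none.

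Kcnq1, which encodes a voltage-gated potassium channel subunit, was the longest member at 320.2 kb, from 143106877 to 143427050, and held 0 peaks in both lists. Long genes held one more often than coding genes in general, but in each list most held none. Among the 533 autosomal coding genes of at least 300 kb, 34.0% had an MNase peak inside and 31.1% a sonication peak. Over all autosomal coding genes the shares were 4.36% and 2.57%. The nearest MNase peak to Kcnq1 was 402 kb away, and 51.9% of autosomal genes lay at least as far from one. The nearest sonication peak was 2.40 Mb away, a distance that 12.1% of autosomal genes reached or passed.

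Among the silenced genes of the Kcnq1ot1 cluster, those on the Phlda2 side were closest to an MNase peak. Phlda2, which restrains growth of the placenta, lay 326 kb from it, and Cdkn1c, the gene of the cell cycle inhibitor p57Kip2, lay 368 kb from it. On the other side of Kcnq1, the distance was 682 kb for Ascl2, a basic helix-loop-helix factor of placental trophoblast. It was 758 kb for Tssc4, whose human product helps to assemble a splicing particle, and 762 kb for Cd81, a tetraspanin gene. Between 31.2% (Cd81) and 57.9% (Phlda2) of autosomal genes were at least as far from an MNase peak as the members of this cluster, which places them in the middle of the range. The sonication list was sparser here: distances ran from 2.26 Mb for Ascl2 to 2.80 Mb for Phlda2, and between 9.52% (Phlda2) and 13.4% (Ascl2) of autosomal genes were at least that far. With only peaks wider than 300 bp counted, the distances were the same, and these shares became 37.0% (Phlda2) and 45.1% (Ascl2). All 7 distances led to the same sonication peak of 450 bp at chr7:140703901-140704350, which overlapped the olfactory receptor gene Olfr541 and was the last of the list on chromosome 7.

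The members of the Airn cluster lay far from any MNase peak and nearer to 1 sonication peak. Igf2r, the receptor that clears insulin-like growth factor 2 and carries mannose-6-phosphate proteins to lysosomes, lay from 12682406 to 12769706. It was 3.20 Mb from the nearest MNase peak and 235 kb from the nearest sonication peak. Slc22a3, an organic cation transporter gene, lay from 12419972 to 12507704, at 3.46 Mb from the nearest MNase peak and 497 kb from the nearest sonication peak. Few autosomal genes were as far from an MNase peak: 0.933% for the distance of Slc22a3, 1.19% for that of Igf2r and 1.31% for that of Airn. These shares include neighbours in the same stretch without MNase peaks, Plg and Map3k4 among them. With only MNase peaks wider than 300 bp counted, the distances were the same and the shares became 3.94%, 5.04% and 5.48%. For the sonication list with all peaks counted, the shares in the same order of genes were 60.7%, 78.1% and 85.4%. All 3 sonication distances led to one peak of 300 bp, the smallest width in the list, at chr17:13004551-13004850. With only peaks wider than 300 bp counted, the sonication distances were 4.90 Mb for Slc22a3, 4.64 Mb for Igf2r and 4.55 Mb for Airn, and 17.5%, 18.9% and 19.5% of autosomal genes were at least as far, so the short distances rest on that peak. The 3 genes lie side by side, so the distances describe one site and not 3.

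**Figure D2:**
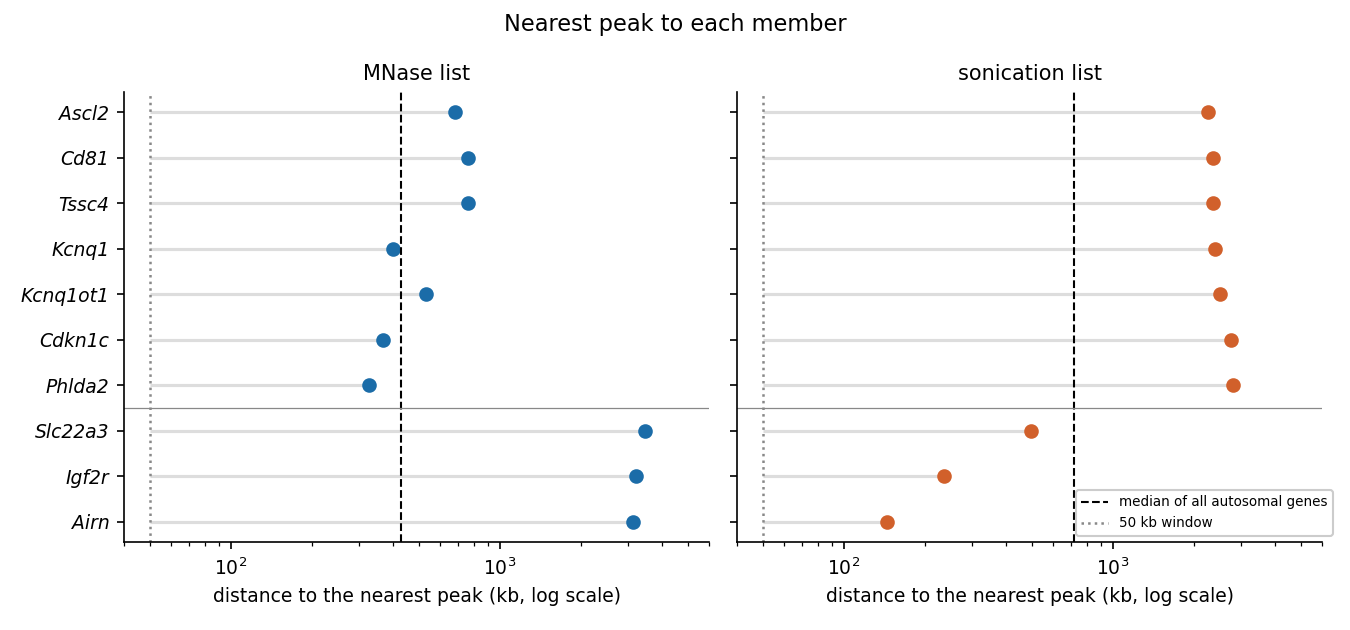
Distance in kb (log axis) from each member to the nearest MNase peak (left) and the nearest sonication peak (right), with Kcnq1ot1 cluster members above the horizontal line and Airn cluster members under it. The dashed line is the median of all 46714 autosomal genes and the dotted line the 50 kb window; every point lies to the right of the 50 kb window. In the MNase panel the Kcnq1ot1 cluster members are spread around the dashed line and the Airn cluster members lie far to its right; in the sonication panel the Kcnq1ot1 cluster members lie to its right and the Airn cluster members to its left.

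Over the 10 members the median distance was 0.72 Mb to an MNase peak and 2.36 Mb to a sonication peak, where the medians of all autosomal genes were 427 kb and 715 kb. The combined medians hide the difference between the clusters. For the 7 members on chromosome 7 the median was 533 kb in the MNase list and 2.40 Mb in the sonication list, and for the 3 members on chromosome 17 it was 3.20 Mb in the MNase list and 235 kb in the sonication list, the last of which rests on the single peak of 300 bp. Because the experiments differed both in how chromatin was cut and in whether male cells were included, these differences cannot be told apart.

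**Figure D3:**
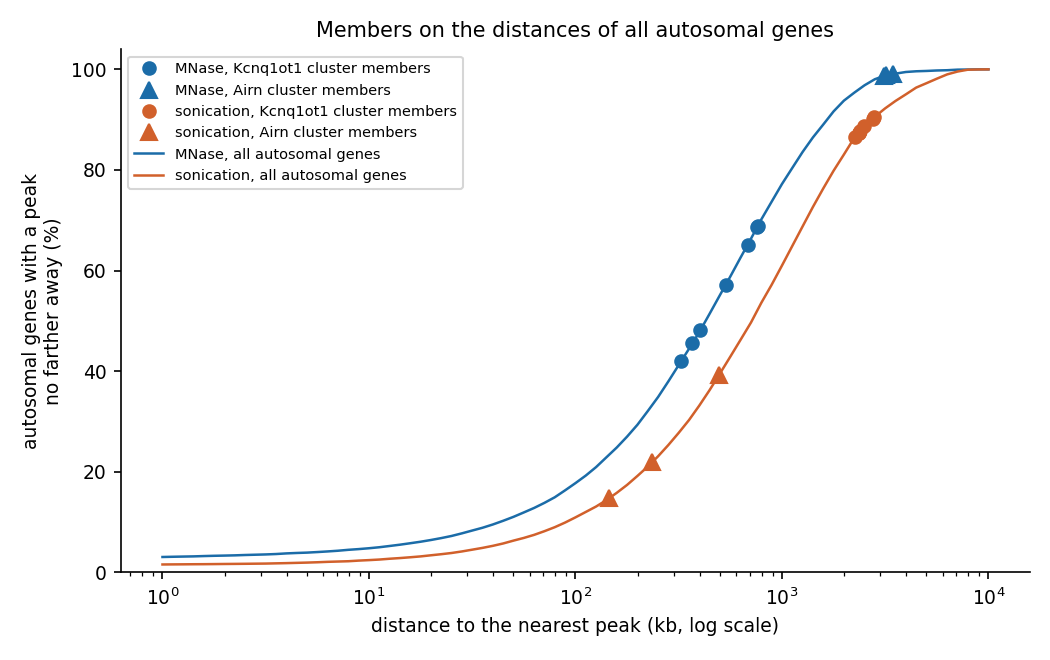
Cumulative share of autosomal genes (%) against the distance to the nearest peak (kb, log axis) for MNase peaks in blue and sonication peaks in orange, with Kcnq1ot1 cluster members as circles and Airn cluster members as triangles on the curve of the same list. In the MNase list the triangles sit at the top of the curve and the circles in its middle, and in the sonication list the triangles sit low on the curve and the circles near its top.

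The stretch without MNase peaks around Igf2r was the longest between neighbouring MNase peaks on any autosome in the list analysed. It ran for 11.0 Mb, from a peak of 600 bp at chr17:5001901-5002500 in Arid1b, a chromatin remodelling gene, to a peak of 450 bp at chr17:15965551-15966000, and ranked first of 2809 autosomal gaps. The next longest, on chromosome 12, measured 9.06 Mb. With each gap counted once whatever its length, the median gap was 367 kb over all autosomes and 706 kb on chromosome 17. The stretch held 249 genes, 94 of them coding, so the Airn cluster was a small part of it. It was not empty in the sonication list, which had 6 peaks there, or 0.547 per Mb, beside 0.62 per Mb over chromosome 17. Whether repeated sequence or mappability differed in this stretch was not tested.

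The MNase gap around the Kcnq1ot1 cluster was 1.54 Mb, and 18.2% of autosomal gaps were at least as long. Such shares count each gap once, while a chosen locus falls more often in a long gap than in a short one. They therefore do not show that a gap around a cluster was unusually long. It ran from a peak of 900 bp at chr7:142284151-142285050, in the lncRNA gene B130016D09Rik, to a peak of 600 bp at chr7:143829451-143830050, inside Dhcr7. The cluster itself, from Ascl2 to Phlda2, measures 536.3 kb, and the Airn cluster, from Slc22a3 to Airn, 439.9 kb. In the sonication list the Kcnq1ot1 cluster lay beyond the last peak of chromosome 7, in an end stretch of 4.62 Mb that held 3 MNase peaks, or 0.649 per Mb beside 1.26 per Mb over chromosome 7. The sonication gap around the Airn cluster measured 1.66 Mb, and 27.5% of autosomal sonication gaps were at least as long.

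**Figure D4:**
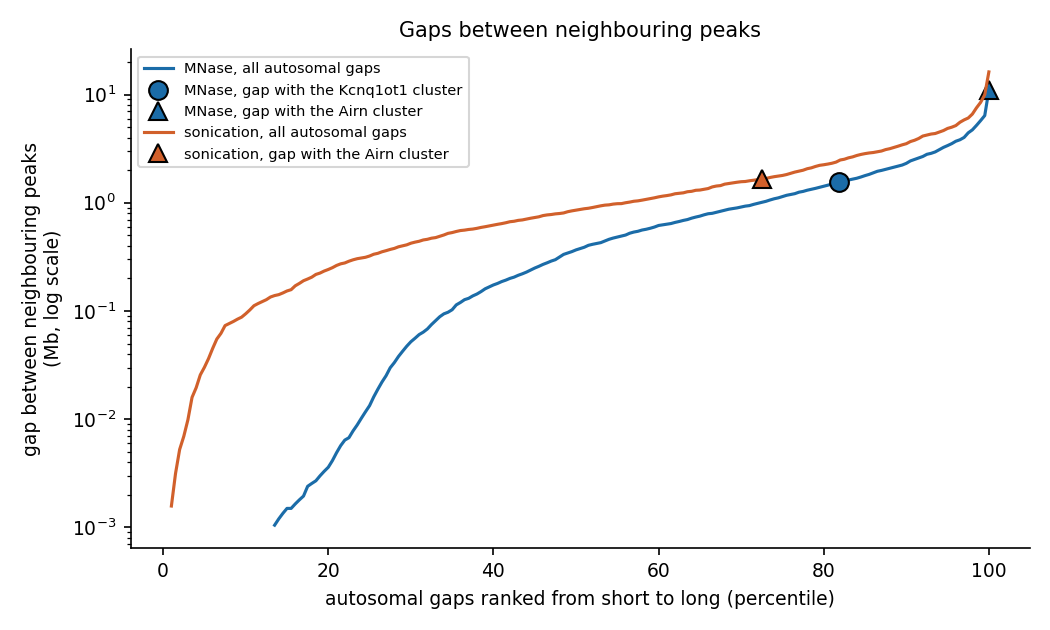
Length of gaps between neighbouring peaks (Mb, log axis) against their percentile among all autosomal gaps, for MNase peaks in blue and sonication peaks in orange; gaps up to 1 kb are not drawn. Each gap counts once in the percentile, whatever its length. The MNase gap with the Airn cluster (11.0 Mb) is at the far right, and the MNase gap with the Kcnq1ot1 cluster (1.54 Mb) and the sonication gap with the Airn cluster (1.66 Mb) lie within the upper part of their curves; the open stretch at the end of chromosome 7 has no second peak and is not drawn.

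A few neighbouring genes of both clusters had a peak. Of 28 such genes found from a list of 29 names, 1 had an MNase peak within 5 kb (3.57%, beside 3.93% of autosomal genes) and 2 had a sonication peak (7.14%, beside 1.96%). Dhcr7, the gene of the last enzyme of cholesterol synthesis, held the MNase peak that was nearest to most chromosome 7 members. Sod2, the mitochondrial superoxide dismutase gene, lay 2.99 kb from the sonication peak nearest to Airn. Within 50 kb, 2 of the 28 had an MNase peak (7.14%, beside 11.0% of autosomal genes) and 4 a sonication peak (14.3%, beside 6.32%). Those 4 were among the 13 neighbours of the Airn cluster. Slc22a18, Nap1l4 and Slc22a2 had no peak within 50 kb in either list.

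Other imprinted genes had peaks where these clusters had none. Within 5 kb, an MNase peak was found for 0 of the 10 members, for 5 of 7 genes of the Snrpn region and for 9 of 41 further imprinted genes. The share over all autosomal genes was 3.93%. Within 50 kb the counts were 0 of 10, 6 of 7 and 16 of 41, beside 11.0% of autosomal genes. A sonication peak within 5 kb was found for 0 of the 10 members, 1 of 7 genes of the Snrpn region and 4 of the 41. Of all autosomal genes, 1.96% had one. Within 50 kb the sonication counts were 0 of 10, 4 of 7 and 6 of 41, beside 6.32% of autosomal genes. These lists of genes were chosen with earlier results of these data known. No test was made of the difference between them, and their members share sites. Snrpn, the paternally expressed splicing gene, has an annotated span of 467.7 kb, and long genes held a peak more often than coding genes in general. On the same chromosome as Kcnq1, Snrpn held 5 MNase peaks of up to 1500 bp and 2 sonication peaks of up to 750 bp. Near it, Mkrn3 held an MNase peak of 450 bp, Ube3a, the ubiquitin ligase gene of Angelman syndrome, one of 300 bp, and Ndn and Peg12 one of 300 bp each within 5 kb. On other chromosomes, Grb10, a growth-restraining adaptor gene of 106.9 kb, held an MNase peak of 900 bp and a sonication peak of 1050 bp. Zdbf2, of 114.2 kb, held 4 MNase peaks of up to 900 bp. Asb4 lay 0.486 kb from an MNase peak of 750 bp, and Sfmbt2, a Polycomb-group gene of 224.8 kb, held 5 of up to 600 bp. Blcap held 1 of 450 bp, which lay 3.78 kb from Nnat, the neuronatin gene. On chromosome 7, Peg3, a paternally expressed zinc-finger gene, held an MNase peak of 450 bp, and Ano1, distal to Dhcr7, one of 600 bp.

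**Figure D5:**
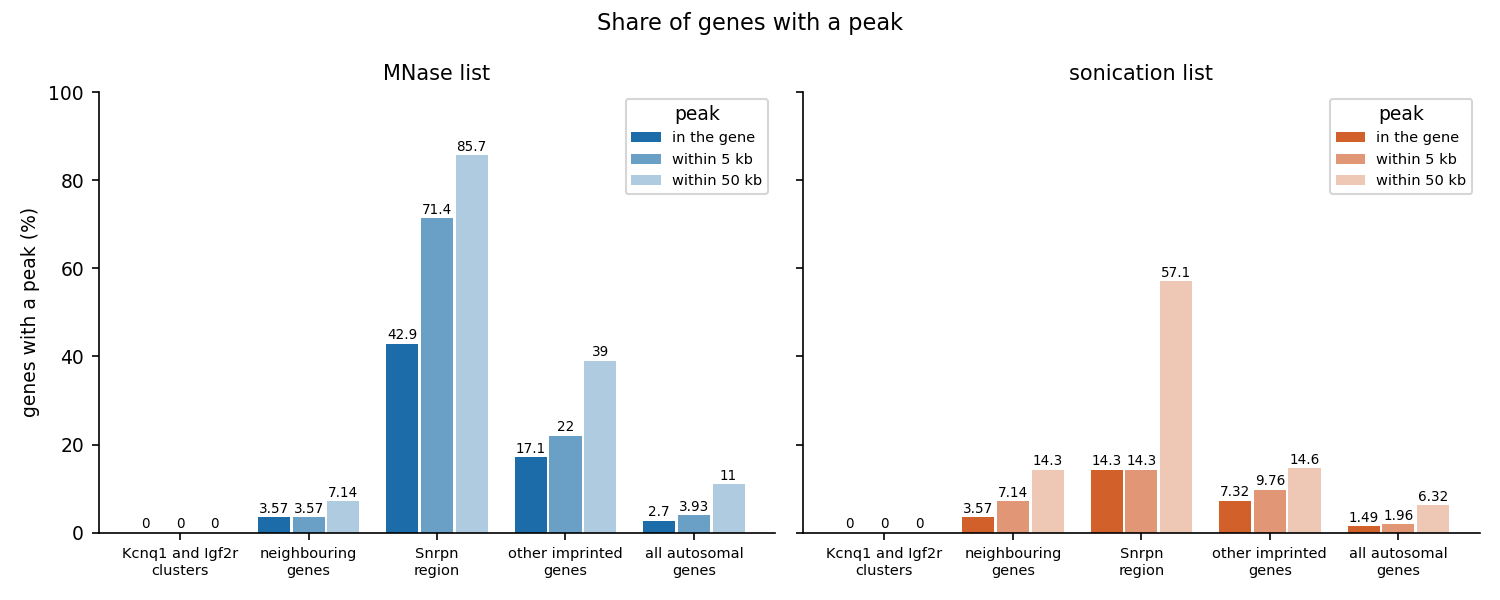
Share of genes (%) with a peak inside the gene, within 5 kb and within 50 kb, in the MNase list (left) and the sonication list (right), for the 10 members, 28 neighbouring genes, 7 genes of the Snrpn region, 41 further imprinted genes and all 46714 autosomal genes. The members are at 0 in all 6 bars, and the Snrpn region has the tallest bar in both panels, 85.7% and 57.1% within 50 kb. Igf2, Ins2 and H19 are counted both among the neighbouring and among the further imprinted genes.

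Some other imprinted genes also had no peak within 50 kb. Of the 48 imprinted genes outside both clusters, 25 (52.1%) had none of the 6 calls made by 3 windows in 2 lists, the pattern of every member and of 83.9% of all autosomal genes. They included Igf2, Ins2 and H19, which adjoin the Kcnq1ot1 cluster on chromosome 7, and Meg3, Gnas and Plagl1 elsewhere. Igf2, Ins2 and H19 were also counted among the neighbouring genes. The authors' broad domains did not reach the members either: of the 11 domains, 8 were on the X and 0 on chromosomes 7 and 17.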

How the data were processed

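The libraries (11, in 6 groups by title) were summarised by the authors as 2 peak lists and a domain list. Per the submitters' processing notes, bcl2fastq, Bowtie 0.12.9, MACS2 and build mm10 were named, with no role or order; SeqMonk is named in the MNase list itself as the source of peaks. What part control libraries had in peak calling was not given in the sources used here. Each list was treated as pooled over an experiment, because the labels of all its libraries name it. The deposited value column was empty, and only start and end were used; widths are multiples of 150 bp and at least 300 bp. The authors' deposited score per domain was not used. Positions depend on the caller's windows, and a threshold that was set too high or too low would remove or add peaks.

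Genes came from RefSeq GRCm38.p6, the assembly of mm10; 340 records placed in the assembly gap that fills the first 3 Mb of chromosomes were dropped. A gene was called when a peak overlapped it, or its span extended by 5 or 50 kb, by at least 1 bp, and distances run between nearest ends. Gaps and densities were computed over the 19 autosomes, whose length ran from the end of the assembly gap to the last gene or peak. Promoter windows of 300 bases were matched by gene ID for 8 of 10 members; the sequence under the peaks, planned as a description, was not analysed here. The calculations used Python 3.11.15, pandas 2.3.3 and numpy 2.4.6 and were tested on simulated data. No statistical test was made: the lists hold no values per library, and shares over all genes stand beside the members. The members and gene lists were chosen with earlier results of these data known. All members are named, with up to 8 genes of each other list that had a peak within 5 kb, widest first, ties in alphabetical order; some genes this selects are not reported here. The rule for genes with the same pattern as a member with a call named none. Genes at the peaks that bound the gaps, genes without a peak and the classes of long genes, promoter windows rich in CpG and windows of 500 kb were chosen after values were seen. Of the neighbouring genes, Lpal2 was not found by name.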

Additional observations from a re-analysis of the deposited data

How the results depend on the processing

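The counts of members with a peak, the peaks near them and their density were 0 in both lists under all 46 combinations of result and setting chosen at the outset: peaks wider than 300 bp only, an overlap of 150 bp, peak midpoints, merged peaks, overlapping members counted once, distances of 1, 10, 20 and 100 kb, and each cluster alone. None of these settings could have given another count, because the nearest peak to any member lay 145 kb away. The unchanged counts therefore say nothing on how robust the result is. Wider windows, added after the distances were seen, gave counts above 0. An MNase peak lay within 200 kb of 0 members, within 500 kb of 3 and within 1 Mb of 7 of the 10, beside 29.4%, 55.1% and 77.2% of autosomal genes. A sonication peak lay within 200 kb of 1 member, within 500 kb of 3 and within 1 Mb of 3, beside 19.2%, 39.5% and 61.0%. Limited to peaks wider than 300 bp, the sonication distances of Igf2r, Airn and Slc22a3 became 4640, 4550 and 4900 kb, since their nearest peak has the smallest width; the other 17 distances kept their value. No paired analysis was possible because the lists hold no values per library. Depth and the threshold of peak calling were unknown, so weak or broad binding at the members could not be assessed.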
